A study of Mus musculus with 3 samples.

Results

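Rab GTPases are small switch proteins that give the membranes of a cell their identity. A Rab is loaded with GTP by an exchange factor, recruits effectors such as tethers and motors to 1 kind of vesicle or organelle, and is switched off by a GTPase-activating protein, usually one with a TBC domain. Each compartment has its own Rabs, and many Rabs come as a family of paralogs with overlapping tasks. In bone marrow, where neutrophils, eosinophils, mast cells and platelet precursors build secretory granules, the granule Rabs are known for granule docking and release, the endosomal Rabs for uptake and digestion of ingested material, and the recycling Rabs for the return of receptors such as the transferrin receptor to the cell surface.

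The members were all entries whose symbol was Rab followed by a number and at most 1 letter, which took 59 of the 23282 entries of the files. The rule itself uses no measured value. All 59 matched a gene of the GENCODE annotation of the mouse assembly GRCm38, called mm10 in the submitters' notes, and the entry Rab1 is the gene annotated there as Rab1a. The RNA came from bone marrow of C57BL/6 mice, an inbred laboratory strain, that were wild type, male and 6 weeks old. This vehicle group was given sterile water by oral gavage for 28 days, with harvest on day 29 and lysis of red blood cells from the marrow. The series sets this vehicle against Asari Radix et Rhizoma, a herbal medicine, and samples given the herb were not analysed here, so the only contrast available is between the 3 vehicle libraries themselves. The labels do not say whether the 3 replicates came from separate mice, so p-values measure the spread between these libraries, which may be technical.

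Reads assigned to genes numbered 9168435 in replicate 1, 8104828 in replicate 2 and 9137125 in replicate 3, and levels are given as reads per 1000000 of these totals (CPM). The libraries were primed at the poly(A) tail and give about 1 fragment per transcript, so CPM levels of different genes can be set side by side without a length correction. A gene with no read may still stand at 0.327, 0.370 or 0.328 CPM in replicates 1, 2 and 3, the level of 3 reads, and intervals and limits of this kind cover counting error only. All 13 lists of cell type markers had reads for each of their members: the erythroid list summed to 75950, 113189 and 113206 CPM, the mature neutrophil list to 73212, 57024 and 76061 CPM, and the 4-gene skeletal muscle list to 7.74, 7.77 and 6.24 CPM. In such bulk samples, fewer cells of a type and less RNA per cell cannot be told apart.

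Together the Rab genes held 2284, 1966 and 2052 CPM in replicates 1, 2 and 3, a mean of 2101 ± 164 CPM (SD, n = 3). Reads were found for 57 of the 59 members and in every library for 49. The median level of the members with reads was 3.81 on the scale log2(CPM + 1), beside 3.15 for all 16040 entries with reads. A few genes carried most of the total: the 7 highest members were needed to reach 50% of all Rab reads, and the 10 highest held 66.1%. Mean levels were at least 50 CPM for 13 members, between 10 and 50 CPM for 18, between 1 and 10 CPM for 14 and under 1 CPM for 14.

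**Figure D1:**
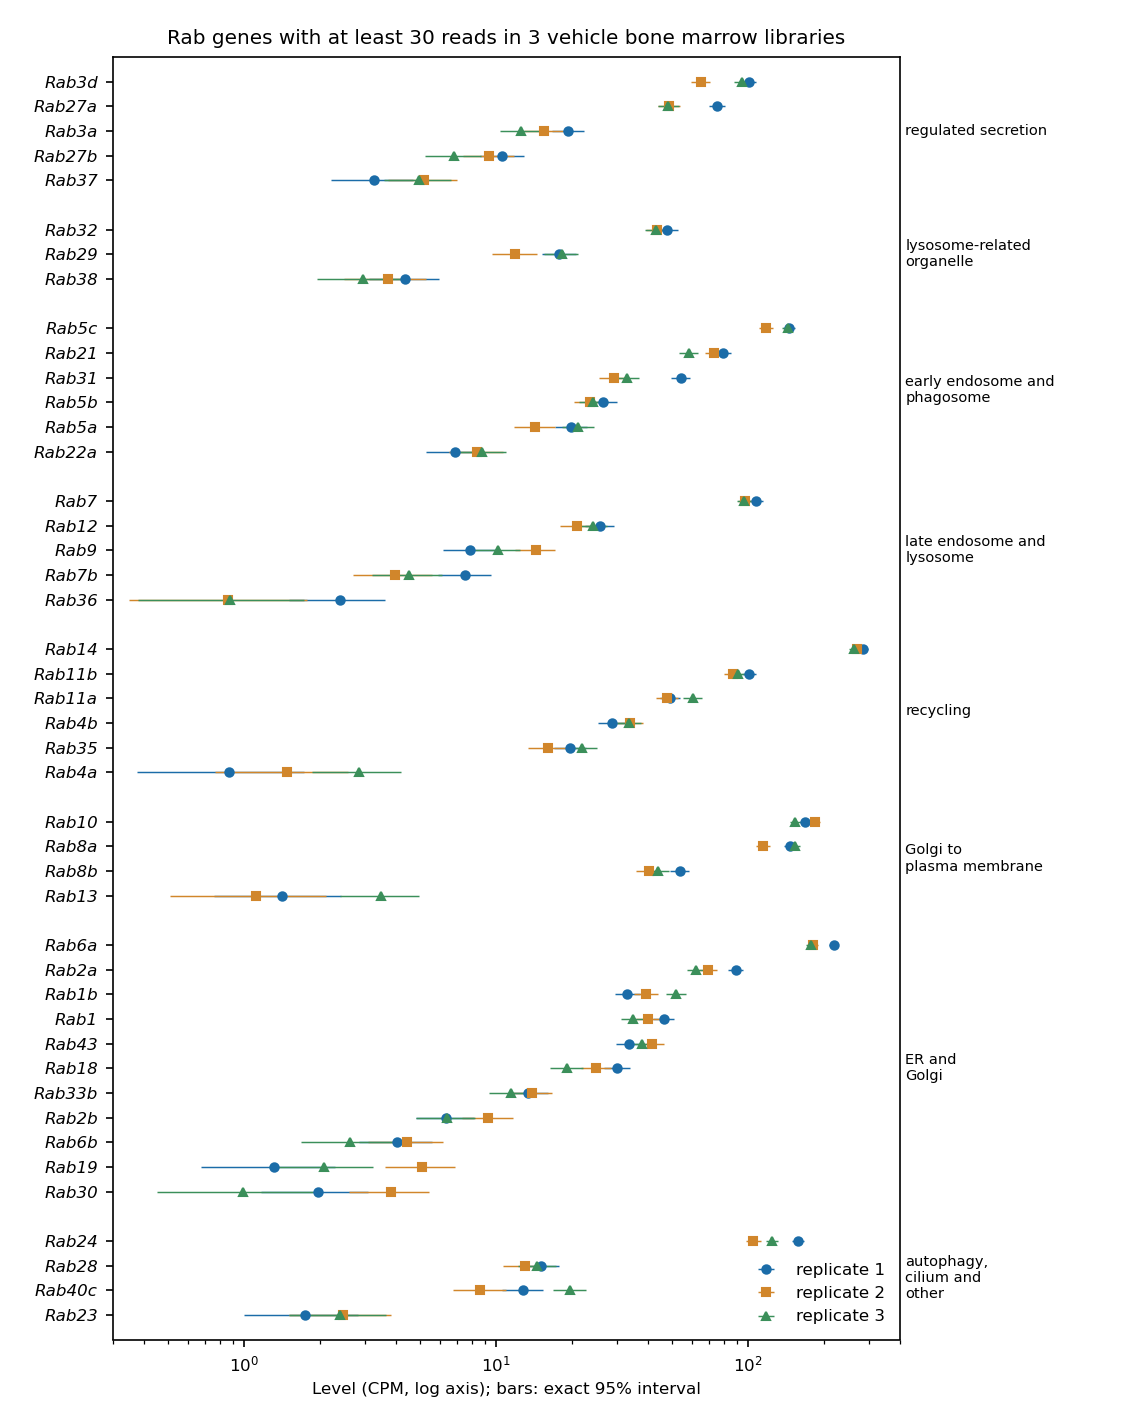
Level in CPM on a log axis of the 44 Rab genes with at least 30 reads, grouped by role class, with 1 point per vehicle library and its exact 95% interval. The highest gene, Rab14, sits at 262 to 286 CPM, and Rab4a, Rab13 and Rab36 lie near 1 CPM with wide intervals.

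The 10 most abundant members were Rab14, Rab6a, Rab10, Rab8a, Rab5c, Rab24, Rab7, Rab11b, Rab3d and Rab2a. The list spans recycling, Golgi, early endosomal, late endosomal, autophagic and secretory membranes. Between neighbours in the order of mean levels, the 3-library ranges overlapped in all but 3 places: Rab14 stood above Rab6a, Rab10 above Rab8a, and Rab4b above Rab5b. For any other adjacent members these ranges overlapped, which leaves out that levels are paired within a library. Some of these members kept their order in each library, such as Rab24 above Rab7. Others, such as Rab8a and Rab5c, did not.

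The members were grouped by the membrane they are best known for, into 8 classes. Recycling Rabs held the largest share of all Rab reads, at 21.3%, 23.2% and 23.0% in replicates 1, 2 and 3 (mean 22.5 ± 1.07%, SD, n = 3). Rabs of the ER and Golgi held 20.9 ± 1.06% and those that carry cargo from the Golgi to the plasma membrane 16.9 ± 0.628%. Early endosomal and phagosomal Rabs followed with 14.1 ± 0.481%. The granule secretion class held 8.21 ± 0.936%, late endosomal and lysosomal Rabs 6.80 ± 0.245%, the lysosome-related organelle class 3.06 ± 0.0598%, and a mixed class of autophagic, ciliary and other Rabs 7.54 ± 0.870%. The recycling class thus had a higher share than the granule class in 3 of 3 libraries, with mean levels of 471 ± 14.6 CPM and 174 ± 33.4 CPM (SD, n = 3). Rab14, which also works at the trans-Golgi network and on phagosomes, held 57.8% of the recycling reads. The lead of the recycling class therefore depends on its placement there. In replicate 1 the exact 95% intervals of the recycling class (20.7 to 21.8%) and the ER and Golgi class (20.4 to 21.5%) overlapped. The granule share was 9.18% (exact 95% interval 8.80 to 9.58%) in replicate 1, 7.32% (6.92 to 7.73%) in replicate 2 and 8.13% (7.75 to 8.53%) in replicate 3. Those of replicates 1 and 2 did not overlap.

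**Figure D2:**
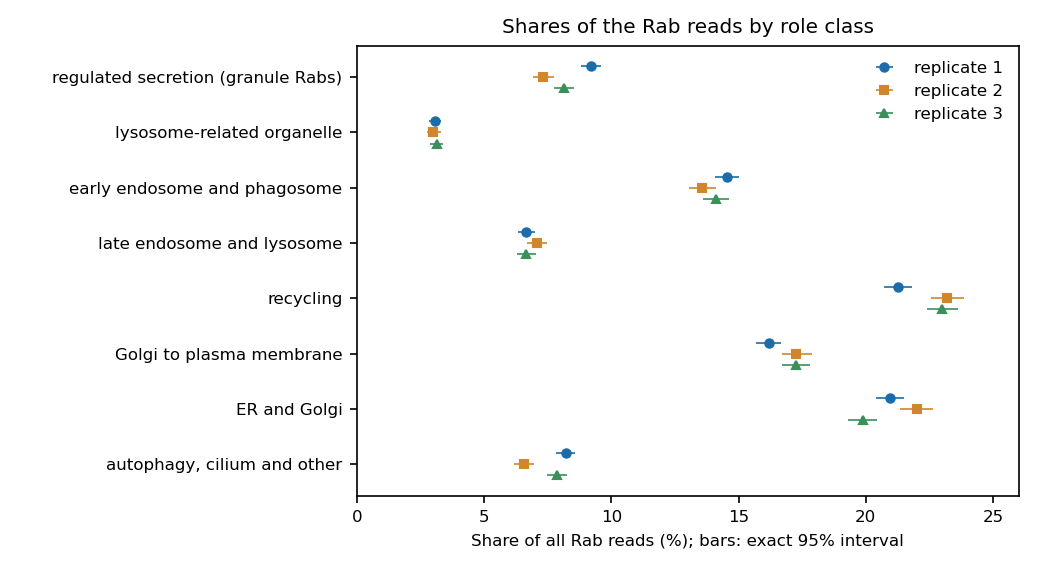
Share of all Rab reads held by each of 8 role classes, in percent on the horizontal axis, with 1 point per vehicle library and its exact 95% interval. Recycling Rabs lie between 21.3 and 23.2% and granule secretion Rabs between 7.32 and 9.18%.

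Differences between the libraries beyond counting error were sought with a two-sided exact binomial test, in which every library is set against the pool of the others. It was run on all 11833 entries that reached 30 reads in total, with Benjamini-Hochberg adjustment over them. Of the 44 members tested, 30 passed at an adjusted p of 0.05, beside 56.5% of all entries tested. Among members with at least 300 reads, 22 of 30 passed, beside 66% of all entries of that depth. The test also finds modest differences in deeply counted genes: the median coefficient of variation (CV) of tested members was 19.1%, beside 17.1% over all tested entries. The remaining members comprise 13 with 1 to 29 reads and 2 with none. The counts of differing genes given below for classes and lists are set against the same 56.5%. "Differed" is used below for members that passed this test.

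Among the granule Rabs, Rab3d, Rab27a, Rab3a and Rab27b differed between the libraries and Rab37 did not pass, and each of the 4 was highest in replicate 1 on library totals. With TMM scaling Rab3d was highest in replicate 3, at 94.2, 65.8 and 98.5 CPM, and Rab3a and Rab27b lost their calls with each of the 4 other scalings (exact adjusted p = 0.0963 and 0.147 with TMM). Rab3d (chr9:21907491-21918192, minus strand), a Rab of regulated secretory granules, was the most abundant of the class and held 49.9% of its reads. Its level was 100 CPM in replicate 1, 64.7 CPM in replicate 2 and 94.1 CPM in replicate 3, a mean of 86.4 ± 19.1 CPM (SD, n = 3). Replicate 2 stood below the others, by a factor of 1.55 against replicate 1 (exact adjusted p = 1.80e-15, exact binomial test). Over the alternative settings that p ran between 1.49e-15 and 0.296, the highest without replicate 2, where the CV was 4.53% in place of 22.1%.

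Rab27a (chr9:73044854-73097629, plus strand) docks granules at the plasma membrane, and its loss gives the ashen coat colour in mice and Griscelli syndrome in people. It had 75.1 CPM in replicate 1, 48.4 CPM in replicate 2 and 48.2 CPM in replicate 3, a mean of 57.2 ± 15.5 CPM. Here replicate 1 stood apart and the other libraries were alike (exact adjusted p = 1.80e-15, exact binomial test, with 1.33e-15 to 0.996 over the alternatives, the highest without replicate 1). Its paralog Rab27b, known from platelet and mast cell granules, had 10.6, 9.38 and 6.79 CPM in replicates 1, 2 and 3. Its adjusted p of 0.0409 reached 0.583 without replicate 3, within a range of 0.0211 to 0.583. Rab3a, best known from synaptic vesicles, had 19.3, 15.4 and 12.6 CPM (exact adjusted p = 0.00839, 0.00168 to 0.227 over the alternatives, the highest without replicate 1). Rab37, a Rab of mast cell granules, had 3.27, 5.18 and 4.92 CPM (exact adjusted p = 0.178).

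The rest of the granule class was close to the limit of detection. Rab44, a large Rab with a calcium-binding domain, had 2, 7 and 2 reads in replicates 1, 2 and 3. All 8 reads of Rab3b came from replicate 1, Rab3c had 1 read in replicate 3, and Rab26, a granule Rab of exocrine cells, had none, which over all 3 libraries allows up to 0.114 CPM. Values of granule-bearing cell types moved between the same libraries. The primary granule list of neutrophils (Mpo, Elane, Prtn3, Ctsg) summed to 1957, 1336 and 1727 CPM in replicates 1, 2 and 3, with all 4 genes past the test and lowest in replicate 2. The mast cell and basophil list summed to 593, 381 and 447 CPM, with 5 of 6 genes past the test, and the eosinophil list to 1454, 704 and 1846 CPM, with 4 of 6, where 56.5% of all tested entries passed. Hdc held 70.5% of the mast cell and basophil reads and Prg2 84% of the eosinophil reads, and members did not all run with the sums. Ms4a2, which passed, had 6.44, 9.99 and 9.30 CPM, with replicate 1 the lowest, and Siglecf, which passed, had 9.49, 7.28 and 5.69 CPM, with replicate 3 the lowest. No gene of these lists was at 0. Their part in the levels of Rab3d and Rab27a was not tested.

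The known partners of these Rabs were read alongside. Of 13 granule effectors, 5 could be tested and 2 differed, where 56.5% of all tested entries did. Unc13d (Munc13-4), a priming factor that binds Rab27a and is needed for granule release by lymphocytes and neutrophils, had 30, 18.6 and 22.9 CPM in replicates 1, 2 and 3 (exact adjusted p = 1.08e-04, 1.82e-05 to 0.128 over the alternatives, the highest without replicate 1). It held 69.2% of the reads of the list. The synaptotagmin-like effectors were low: Sytl1 had 1.53, 4.2 and 8.10 CPM (exact adjusted p = 1.39e-07, at most 0.00630 over the alternatives), with replicate 3 the highest, and Sytl3 had 1.96, 2.47 and 1.09 CPM (exact adjusted p = 0.204). Exph5, Myrip and Rims1 had no reads.

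Among Rabs of lysosome-related organelles, the compartments to which melanosomes and platelet dense granules belong, Rab32 (chr10:10545002-10558265, minus strand) led with 47.8, 43.6 and 43.0 CPM. No setting gave it a call (exact adjusted p = 0.399, 0.233 to 1 over the alternatives). Its paralog Rab38 had 4.36, 3.70 and 2.95 CPM and was not called under any setting either. Rab29, which recruits the kinase LRRK2 to membranes, had 17.8, 11.8 and 18.2 CPM (exact adjusted p = 0.00201, 0.00180 to 0.921, the highest without replicate 2). Lrrk2, whose product phosphorylates several Rabs including Rab8a, Rab10 and Rab12, had 32.0, 35.3 and 34.0 CPM (exact adjusted p = 0.921), and Lrrk1 17.5, 14.2 and 12.0 CPM (exact adjusted p = 0.0308, 0.00998 to 0.370, over 0.05 with each of the 4 other scalings, with no read minimum and without replicate 1 or 3).

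Early endosomal Rabs were carried by Rab5c, Rab21 and Rab31. The 3 Rab5 proteins drive fusion of early endosomes, and Rab5c (chr11:100715009-100738215, minus strand) was the leading one, with 145 CPM in replicate 1, 118 CPM in replicate 2 and 144 CPM in replicate 3. Replicate 2 was the low one (exact adjusted p = 1.20e-06, exact binomial test, 1.01e-06 to 0.905 over the alternatives, the highest without replicate 2). Rab5b had 26.5, 23.6 and 24.3 CPM and was not called under any setting (exact adjusted p = 0.752). Rab5a had 19.9, 14.2 and 21.1 CPM (exact adjusted p = 0.00395, 0.00358 to 0.691, the highest without replicate 2). The annotated 3′ end of Rab5a overlaps Pp2d1 on the opposite strand, which had 153, 84 and 154 reads, and without a stated strand setting their reads cannot be told apart.

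Rab31 (chr17:65651729-65772752, minus strand), which sorts cargo between the trans-Golgi network and endosomes and is found on phagosomes, differed most in size within the class. It had 54.0 CPM in replicate 1, 29.2 CPM in replicate 2 and 32.9 CPM in replicate 3, a mean of 38.7 ± 13.3 CPM and a CV of 34.5%. Replicate 1 stood apart (exact adjusted p = 2.83e-16, exact binomial test, 8.01e-17 to 0.309 over the alternatives, the highest without replicate 1). Rab21, known from integrin uptake, had 79.7, 73.4 and 58.1 CPM, with replicate 3 the lowest (exact adjusted p = 9.00e-07, 4.02e-07 to 0.239, the highest without replicate 3). Rab22a had 6.87, 8.39 and 8.76 CPM (exact adjusted p = 0.535), and Rab20, a Rab of maturing phagosomes, had 1 read in replicate 2 alone.

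Late endosomal Rabs were dominated by Rab7 (chr6:87999106-88045270, minus strand), the Rab of late endosomes and lysosomes, which held 70.5% of the reads of the class. It had 108, 97.5 and 96.3 CPM in replicates 1, 2 and 3, a mean of 100 ± 6.24 CPM. Its adjusted p of 0.0485 lay at the threshold and was 1 with TMM scaling, within a range of 0.0449 to 1. Rab12, which directs the transferrin receptor to lysosomes, had 25.7, 20.9 and 24.2 CPM (exact adjusted p = 0.196).

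Rab9, which returns mannose 6-phosphate receptors to the trans-Golgi network, was the tested member of this class with its highest value in replicate 2, at 7.85, 14.3 and 10.2 CPM (exact adjusted p = 0.00156, 3.59e-04 to 0.186, the highest without replicate 2). Rab7b had 7.53, 3.95 and 4.49 CPM (exact adjusted p = 0.00574, 0.00522 to 0.762, the highest without replicate 1). Rab36 had 22, 7 and 8 reads (exact adjusted p = 0.0175, 0.0142 to 0.0429), and Rab34 had 8, 14 and 4 reads. Both bind the lysosome-positioning protein RILP. Rab9b had no reads.

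Of 12 effectors of early and late endosomal Rabs, 11 were tested and 7 differed, where 56.5% of all tested entries did. Eea1, the tether of early endosomes that binds Rab5, had 99.7, 125 and 110 CPM in replicates 1, 2 and 3 (exact adjusted p = 1.07e-04, 3.97e-09 to 0.0881, the highest without replicate 2). Rabep1, another Rab5 effector, had 83.3, 84.1 and 63.0 CPM (exact adjusted p = 1.34e-07, 1.12e-07 to 0.914, the highest without replicate 3), and Appl1 68.4, 63.4 and 60.5 CPM (exact adjusted p = 0.208). Eea1 was lowest in replicate 1 and Rabep1 in replicate 3, whereas Rab5c was lowest in replicate 2. Among Rab7 effectors, Osbpl1a had 12.8, 17.5 and 7.55 CPM (exact adjusted p = 2.19e-06, at most 0.0355 over the alternatives), Fyco1 27.7, 17.9 and 17.4 CPM (exact adjusted p = 2.89e-06, 2.43e-06 to 0.894, the highest without replicate 1) and Plekhm1 19.1, 20.2 and 27.0 CPM (exact adjusted p = 0.00144, 6.60e-05 to 0.738, the highest without replicate 3).

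The recycling class was led by Rab14 (chr2:35180205-35201120, minus strand), which works between the trans-Golgi network, endosomes and phagosomes. It was the most abundant Rab gene, at 286, 270 and 262 CPM in replicates 1, 2 and 3, and held 57.8% of the reads of the class. The mean was 273 ± 12.4 CPM and the CV of 4.56% was the lowest of all 44 tested members on library totals. Its adjusted p of 0.0152 was 1 with TMM scaling, within a range of 0.00641 to 1, and with that scaling, with median-of-ratios factors and with the authors' own denominators replicate 1 was no longer above replicate 3.

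The Rab11 proteins mark the recycling endosome. Rab11b (chr17:33742484-33760530, minus strand) had 101, 86.7 and 90.9 CPM (exact adjusted p = 0.0211, 0.0113 to 0.666 over the alternatives, 0.508 without replicate 1, 0.0807 without replicate 2 and 0.453 with TMM scaling). Rab11a (chr9:64715299-64737758, minus strand) had 49.0, 47.7 and 60.1 CPM, with replicate 3 the highest (exact adjusted p = 9.51e-04, 5.45e-06 to 0.822, the highest without replicate 3). The epithelial relative Rab25 had 6 reads in all. Rab4 proteins serve the fast recycling route, in which Rab4b had 28.7, 34.1 and 33.7 CPM (exact adjusted p = 0.117, 0.00310 to 0.949, and 0.00348 with TMM scaling) and Rab4a 8, 12 and 26 reads (exact adjusted p = 0.0178, 0.00705 to 0.154, the highest without replicate 1). Rab35, a second Rab of fast recycling, had 19.6, 16.0 and 21.9 CPM (exact adjusted p = 0.0566, 0.0208 to 0.434, the lowest without replicate 1). Rab17 had 2 reads in each library and Rab15 had 1 read in replicate 3.

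Of 10 recycling effectors, 8 were tested and 4 differed, where 56.5% of all tested entries did. Myo5a, the myosin that moves both recycling endosomes and Rab27a-bearing organelles, had 90.7, 107 and 79.5 CPM in replicates 1, 2 and 3 (exact adjusted p = 1.85e-06, at most 0.0266 over the alternatives). Rab11fip1, an adaptor of Rab11, was level at 25.1, 23.9 and 24.6 CPM, with an adjusted p of 1 and a mean of 24.5 ± 0.579 CPM. Zfyve27 (protrudin) had 21.4, 10.4 and 15.7 CPM (exact adjusted p = 1.13e-05, at most 0.0153). Rab11fip3 and Rab11fip5 were lower, at 3.05, 1.23 and 0.328 CPM (exact adjusted p = 2.32e-04, at most 0.0380) and at 3.82, 1.11 and 2.63 CPM (exact adjusted p = 0.00972, 0.00201 to 0.307, over 0.05 without replicate 1 or 2).

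All 4 Rabs of transport from the Golgi to the plasma membrane differed, where 56.5% of all tested entries did. Rab10 (chr12:3247428-3309969, minus strand) had 169, 183 and 154 CPM (exact adjusted p = 4.05e-04, 3.82e-06 to 0.0536, the highest without replicate 3) and its relative Rab8a (chr8:72161200-72183904, plus strand) 146, 115 and 153 CPM (exact adjusted p = 7.92e-11, 6.56e-11 to 0.358, the highest without replicate 2). Replicate 2 was thus the highest library for Rab10 and the lowest for Rab8a. Rab8b had 53.4, 40.2 and 44.0 CPM (exact adjusted p = 6.53e-04, 4.17e-04 to 0.377, the highest without replicate 1, and 0.0629 with TMM, over 0.05 with each of the 4 other scalings) and Rab13 1.42, 1.11 and 3.50 CPM (exact adjusted p = 0.00231, 0.00126 to 0.0147).

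In the ER and Golgi class, 7 of 11 tested members differed, where 56.5% of all tested entries did. Rab6a (chr7:100607410-100641268, plus strand), a Rab of the Golgi and trans-Golgi network, led the class with 218, 180 and 178 CPM, highest in replicate 1 (exact adjusted p = 3.57e-10, 2.96e-10 to 0.882, the highest without replicate 1). Rab2a, which acts at the Golgi and in lysosome fusion, had 89.0, 69.3 and 61.9 CPM (exact adjusted p = 1.33e-09, 4.19e-10 to 0.133, the highest without replicate 1), and Rab2b 6.33, 9.25 and 6.35 CPM (exact adjusted p = 0.0611, 0.0345 to 1, and 0.0427 with TMM scaling). Replicate 1 was the highest library for Rab2a and not for Rab2b. Rab1 and Rab1b, which control export from the ER, went different ways: Rab1 (chr11:20201432-20226856, plus strand) had 46.2, 40.1 and 35.0 CPM and Rab1b (chr19:5099205-5107072, minus strand) 33.2, 39.4 and 51.5 CPM. Rab1 was highest in replicate 1 (exact adjusted p = 0.00623, 9.70e-04 to 0.182, the highest without replicate 1, and over 0.05 with each of the 4 other scalings) and Rab1b in replicate 3 (exact adjusted p = 2.13e-07, 2.97e-10 to 0.0788, the highest without replicate 3).

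Of the less abundant Golgi Rabs, Rab19 and Rab30 spread widest. Rab6b, the neuronal paralog of Rab6a, had 4.04, 4.44 and 2.63 CPM (exact adjusted p = 0.183). Rab19 had 1.31, 5.06 and 2.08 CPM, a CV of 70.3%, with replicate 2 the highest (exact adjusted p = 6.54e-05, 2.70e-05 to 0.333, the highest without replicate 2), and Rab30 had 1.96, 3.82 and 0.985 CPM (exact adjusted p = 0.00269, 7.11e-04 to 0.0735, the highest without replicate 3). Rab18, a Rab of the ER and lipid droplets, had 30.2, 24.9 and 19.0 CPM (exact adjusted p = 1.90e-04, 1.43e-05 to 0.0900, the highest without replicate 3). Rab43 had 33.6, 41.6 and 38.0 CPM (exact adjusted p = 0.0740, 0.00116 to 0.395, with 0.00129 under TMM scaling and 0.0226 without replicate 3) and Rab33b, which recruits the autophagy protein Atg16l1, 13.4, 13.8 and 11.5 CPM (exact adjusted p = 0.554). Of 7 Golgi effectors, all tested, 3 differed. The golgins Gcc2, Golgb1 and Golga2 had 117, 116 and 108 CPM (exact adjusted p = 0.275), 103, 123 and 97.7 CPM (exact adjusted p = 9.47e-06, 7.18e-08 to 0.411, the highest without replicate 2) and 74.4, 65.9 and 57.9 CPM (exact adjusted p = 0.00137, 1.20e-04 to 0.0906, over 0.05 with TMM, median-of-ratios and the authors' scaling and without replicate 1 or 3). Golga5 had 19.3, 19.4 and 13.4 CPM (exact adjusted p = 0.00319, 0.00288 to 1, the highest without replicate 3).

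Of the remaining Rabs, Rab24 and Rab40c differed under every setting that gave a value. Rab24 (chr13:55319743-55321946, minus strand), a Rab linked to autophagy, held 81% of the reads of its mixed class. It had 158, 105 and 124 CPM in replicates 1, 2 and 3, a mean of 129 ± 26.8 CPM, with replicate 1 the highest (exact adjusted p = 2.36e-17, at most 0.00103). Its 3′ end lies against Prelid1 on the opposite strand, which had 731, 439 and 593 reads, the same order of libraries, and since no strand setting is stated a part of these reads cannot be told apart. Rab40c (chr17:25882114-25919727, minus strand), the substrate receptor of a ubiquitin ligase, had 12.8, 8.64 and 19.6 CPM, a CV of 40.5% (exact adjusted p = 5.49e-07, at most 0.0297). Rab28 and Rab23, both known from cilia, had 15.1, 13 and 14.6 CPM and 1.75, 2.47 and 2.41 CPM, and neither was called under any setting. Rab42 had 1 read.

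**Figure D3:**
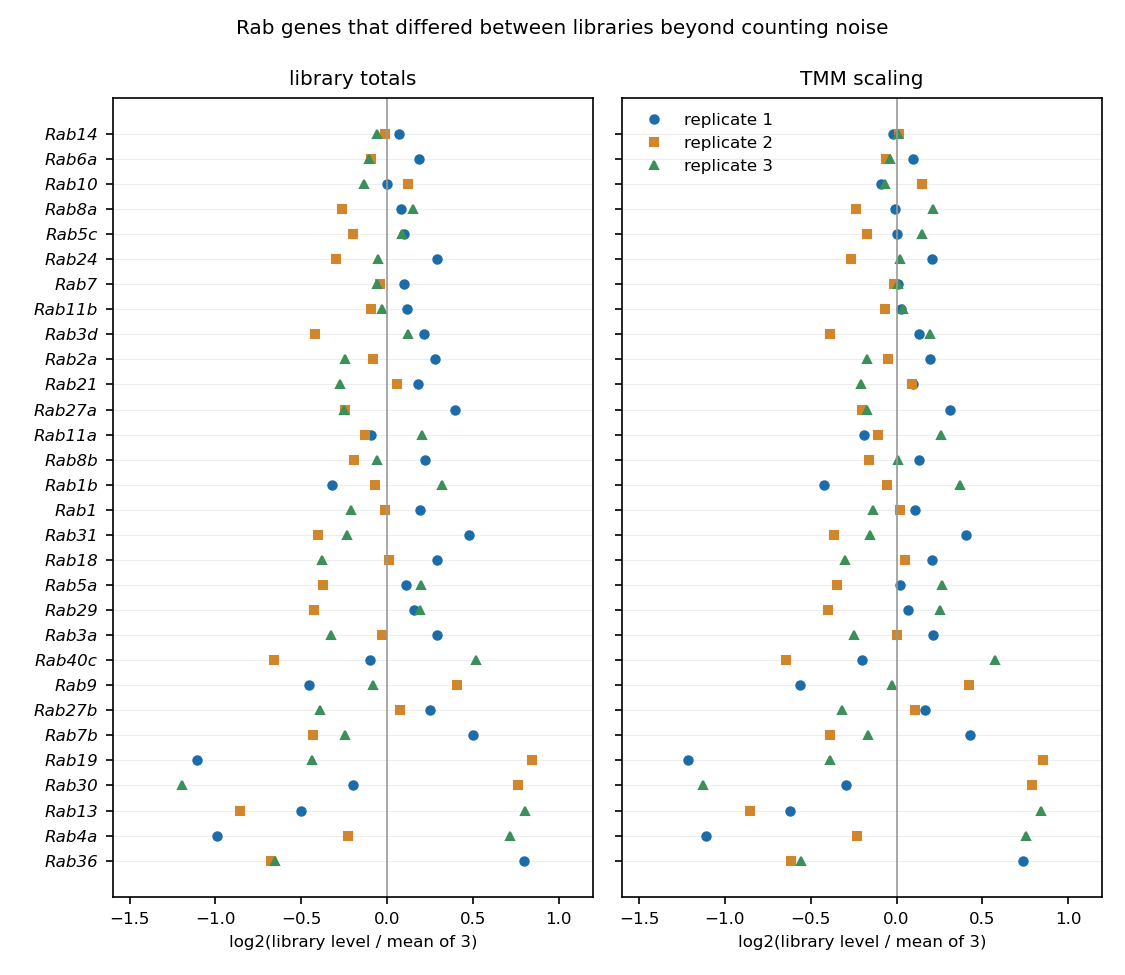
Level of each of the 30 Rab genes that differed, as log2 of a library's level over the mean of the 3 vehicle libraries, on library totals (left) and with TMM scaling (right), 1 point per library. Replicate 1 is highest for 18 of these genes on library totals, and genes with few reads, such as Rab19 with a CV of 70.3%, spread widest.

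On library totals 30 of the 44 tested members differed. Replicates 1, 2 and 3 were highest for 18, 4 and 8 of the 44, beside 31.2%, 14.8% and 10.5% of all tested entries. They were lowest for 4, 14 and 12 of the 44, beside 8.82%, 21.4% and 26.2% of all tested entries. Only genes that differed enter these counts and shares, each taken out of all genes tested. The highest library depended on the scaling, whereas replicate 2 was lowest for 13 or 14 members with every scaling. With TMM factors 27 of the 44 tested members differed. Highest were replicate 1 for 9 of the 44, replicate 2 for 6 and replicate 3 for 12, beside 16.6%, 17.7% and 17.6% of all tested entries. Lowest were replicate 1 for 9, replicate 2 for 14 and replicate 3 for 4, beside 17.3%, 18.1% and 16.6%. The median gene, which stood 0.13 (log2) higher in replicate 1 than in the others on totals, moved to -0.00. The calls of 23 members held with each of the 4 other scalings. Each of these scalings ended the calls of the same 7 members (Rab14, Rab7, Rab11b, Rab8b, Rab1, Rab3a and Rab27b) and added the same 4 (Rab43, Rab4b, Rab35 and Rab2b). Calls also ended when a library was left out, in part by construction. The test calls a gene when 1 library departs from the pool of the others, and then only 2 libraries remain. Without replicate 1 the calls of Rab27a, Rab31, Rab6a, Rab2a, Rab8b, Rab7b, Rab4a, Rab14, Rab7, Rab11b, Rab1, Rab3a and Rab27b ended, and without replicate 2 those of Rab3d, Rab5c, Rab8a, Rab5a, Rab29, Rab9, Rab19 and Rab11b. Without replicate 3 those of Rab10, Rab21, Rab11a, Rab1b, Rab18, Rab30, Rab14, Rab7, Rab1, Rab3a and Rab27b ended. Rab24, Rab40c, Rab13 and Rab36 kept their call in every setting that gave them a value. The Rab total was 2144, 2002 and 2147 CPM with TMM factors and 2035, 1918 and 2031 CPM with the authors' scaling. Replicates 1 and 3 were thus nearly level there, with replicate 2 the lowest. Without the 20 most abundant genes replicate 1 was the highest, at 3879 CPM beside 3806 CPM in replicate 3.

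Paralog choice was examined in 16 families as the share of family reads held by each member, which does not depend on the library totals. In most families 1 member dominated in every library. Rab6a held 98.2%, 97.6% and 98.5% of Rab6 reads in replicates 1, 2 and 3, Rab4b 97.0%, 95.8% and 92.2% of Rab4 reads, and Rab7 93.5%, 96.1% and 95.5% over Rab7b. Rab32 held 91.6%, 92.2% and 93.6% over Rab38, and Rab2a 93.4%, 88.2% and 90.7% over Rab2b. Rab9b had no reads against 281 for Rab9, which was at least 93.7-fold higher when 3 reads over the group are allowed for Rab9b. Rab33b, part of whose 3′ sequence is shared with H2-T23, had 340 reads against 1 for Rab33a, a ratio of 340 with a 95% counting interval of 60.6 to 13468, and Rab40c 366 reads against 3 for Rab40b, a ratio of 122 (41.4 to 594). Rab39 and Rab39b, with 13 and 4 reads, were too low to order.

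The Rab5 family was divided in nearly the same way in every library. Rab5c held 75.8%, 75.8% and 76.0% of Rab5 reads in replicates 1, 2 and 3, a mean of 75.9 ± 0.140% (SD, n = 3), while Rab5b held 13.8%, 15.1% and 12.8% and Rab5a 10.4%, 9.11% and 11.1%. The exact 95% intervals of the 3 libraries overlapped for each of these genes. The mean log2 ratio of Rab5c over Rab5b was 2.44 ± 0.12, a factor of 5.44. Rab27a likewise held 87.7%, 83.8% and 87.6% over Rab27b with overlapping intervals (log2 ratio 2.66 ± 0.27, a factor of 6.31), and the level of Rab27a itself differed between libraries.

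In the Rab3 family, whose members serve regulated secretion, Rab3d held 83.3%, 80.7% and 88.1% and Rab3a 16.0%, 19.3% and 11.8% in replicates 1, 2 and 3. The intervals of replicates 2 and 3 did not overlap, and the log2 ratio of Rab3d over Rab3a averaged 2.44 ± 0.42, a factor of 5.43. Rab31 held 88.7% (exact 95% interval 85.8 to 91.2%), 77.7% (72.6 to 82.3%) and 79.0% (74.6 to 83.0%) over Rab22a, so replicate 1 lay above the others. The Rab11 and Rab8 families were shared more evenly than the Rab3 family, unlike the Rab4 family of the recycling class. Rab11b held 67.2%, 64.5% and 60.0% and Rab11a 32.7%, 35.5% and 39.7% of Rab11 and Rab25 reads, a factor of 1.78 between them, and Rab8a held 73.2%, 74.0% and 77.6% over Rab8b, a factor of 3.

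Rab1 was the family with no fixed leader. Rab1b held 41.8% (exact 95% interval 38.1 to 45.4%) of its reads in replicate 1, 49.5% (45.6 to 53.5%) in replicate 2 and 59.5% (56.0 to 63.0%) in replicate 3, so Rab1 led in replicate 1 and Rab1b in replicate 3. The log2 ratio of Rab1b over Rab1 was -0.48, -0.03 and 0.56, a mean of 0.02 ± 0.52 (exact sign-flip p = 1), and -0.25 without replicate 3. In the 15 other families the log2 ratio of the 2 leading members was above 0 in 3 of 3 libraries. The member with more reads over the same 3 libraries was put on top, which favours a ratio above 0. The exact two-sided sign-flip p was 0.25, the smallest that 3 libraries allow, so the design cannot pass 0.05 for any family.

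**Figure D4:**
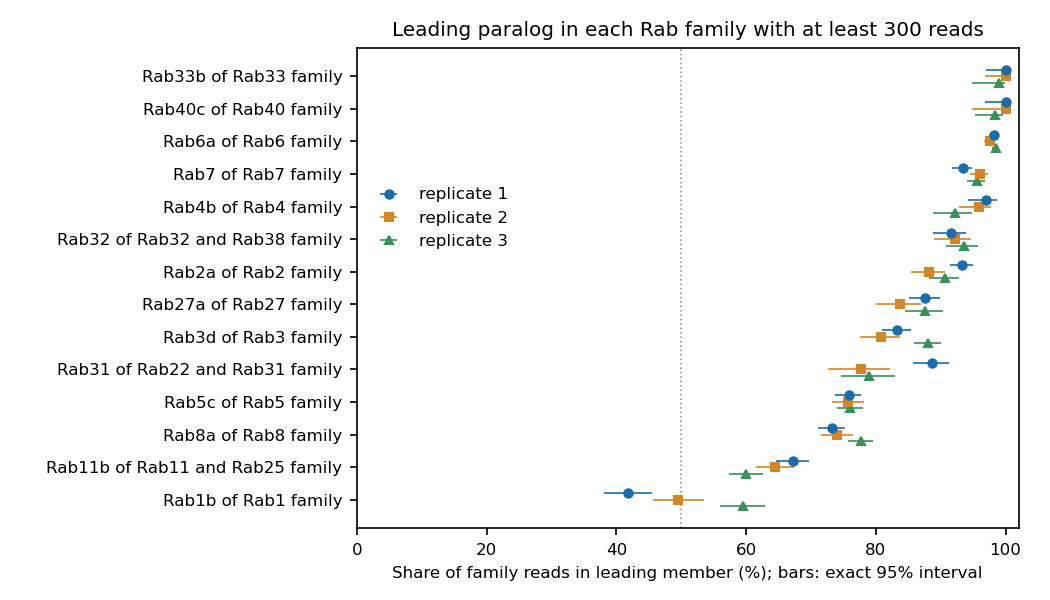
Share of family reads held by the leading member of each Rab family with at least 300 reads, in percent on the horizontal axis, with 1 point per vehicle library and its exact 95% interval. Rab5c stays near 75.9% in every library, while Rab1b lies between 41.8% and 59.5%.

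The counts of paralogs could be mixed where their transcripts share 3′ sequence, which was checked as 50-base words in the last 500 bases of each transcript. No word was shared with any other gene for 44 of the 59 members, and over 10% of the words for 6. In none of those 6 was the largest sharer a Rab paralog. For Rab2b, Rab4b and Rab43, 100%, 98.7% and 49.1% of the words are shared with genes annotated under the symbols Gm43766, Gm21983 and Gm45140, which have no entry in the files. For Rab33b, 33.0% of the words are shared with H2-T23, an MHC class I gene, so the reads of Rab33b, and with them its ratio over Rab33a, are uncertain.

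Gene start sequences are shown for members with contrasting levels within a family. They are RefSeq windows of GRCm38.p6 with 250 bases before and 50 after the annotated start, in the direction of transcription, with each CG dinucleotide in capitals. Rab33b (chr3:51483716-51484015, plus strand; mean 12.9 CPM) and Rab33a (chrX:48519035-48519334, plus strand; 1 read) have 28 and 7 CG dinucleotides. Rab6a (chr7:100607336-100607635, plus strand; mean 192 CPM) and Rab6b (chr9:103111824-103112123, plus strand; mean 3.70 CPM) have 29 and 42, so the order is the other way. Rab3d (chr9:21918134-21918433, minus strand) and Rab14 (chr2:35201071-35201370, minus strand), the leading granule and recycling Rabs, have 26 and 27.
Rab33b: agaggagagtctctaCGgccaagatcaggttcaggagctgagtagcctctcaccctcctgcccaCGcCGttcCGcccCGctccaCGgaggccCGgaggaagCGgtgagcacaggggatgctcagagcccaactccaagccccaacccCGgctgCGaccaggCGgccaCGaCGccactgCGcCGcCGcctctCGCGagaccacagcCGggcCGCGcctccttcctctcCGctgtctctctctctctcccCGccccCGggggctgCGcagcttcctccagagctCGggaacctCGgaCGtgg
Rab33a: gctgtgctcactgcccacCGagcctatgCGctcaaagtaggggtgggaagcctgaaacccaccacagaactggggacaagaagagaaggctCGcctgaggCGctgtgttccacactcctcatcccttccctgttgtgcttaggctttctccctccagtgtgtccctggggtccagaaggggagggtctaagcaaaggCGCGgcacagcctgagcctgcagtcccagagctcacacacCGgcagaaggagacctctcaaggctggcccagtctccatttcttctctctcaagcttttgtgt
Rab6a: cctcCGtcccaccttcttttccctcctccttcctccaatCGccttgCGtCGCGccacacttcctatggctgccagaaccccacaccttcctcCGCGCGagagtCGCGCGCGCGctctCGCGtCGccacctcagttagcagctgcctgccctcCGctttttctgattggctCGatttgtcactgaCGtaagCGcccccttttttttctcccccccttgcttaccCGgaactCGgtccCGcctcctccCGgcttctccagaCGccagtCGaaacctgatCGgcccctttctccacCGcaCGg
Rab6b: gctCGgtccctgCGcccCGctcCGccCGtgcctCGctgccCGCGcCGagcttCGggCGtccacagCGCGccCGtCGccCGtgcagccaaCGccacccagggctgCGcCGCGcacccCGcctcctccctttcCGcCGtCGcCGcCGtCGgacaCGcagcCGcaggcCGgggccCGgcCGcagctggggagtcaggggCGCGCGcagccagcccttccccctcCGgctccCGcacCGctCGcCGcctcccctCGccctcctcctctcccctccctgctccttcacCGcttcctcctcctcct
Rab3d: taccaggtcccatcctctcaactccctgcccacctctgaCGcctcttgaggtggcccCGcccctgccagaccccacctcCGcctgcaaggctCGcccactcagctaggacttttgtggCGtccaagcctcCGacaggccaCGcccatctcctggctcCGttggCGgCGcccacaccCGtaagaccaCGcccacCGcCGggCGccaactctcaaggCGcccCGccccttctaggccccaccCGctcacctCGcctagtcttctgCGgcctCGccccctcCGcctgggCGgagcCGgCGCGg
Rab14: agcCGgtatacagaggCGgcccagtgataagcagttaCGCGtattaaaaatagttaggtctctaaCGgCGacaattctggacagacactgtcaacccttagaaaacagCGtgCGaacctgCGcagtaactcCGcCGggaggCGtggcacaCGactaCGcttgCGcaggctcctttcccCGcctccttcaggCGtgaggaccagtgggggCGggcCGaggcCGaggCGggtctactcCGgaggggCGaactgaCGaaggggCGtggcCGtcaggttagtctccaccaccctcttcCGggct

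A window was found for 48 of the 59 members, and 40 had exactly 1, which were used. In the 29 of these with at least 30 reads, the ratio of observed to expected CG had a median of 0.787 (0.388 to 1.18) and reached 0.6 in 25. In the 11 members with fewer than 30 reads the median was 0.557 (0.216 to 1.06) and 4 reached 0.6, beside 35.8% of all 32851 windows of the table, whose median was 0.384. The GC box letters GGGCGG, searched on both strands, were in 21 of the 29 and 7 of the 11 windows, beside 35.7% of all windows. The TATA letters TATAAA, also on both strands, were in 0 of the 29 and 3 of the 11, beside 13.6% of all windows, and the E-box letters CACGTG in 3 and 1, beside 7.15%. These matches describe letters in the window and are no evidence of binding.

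**Figure D5:**
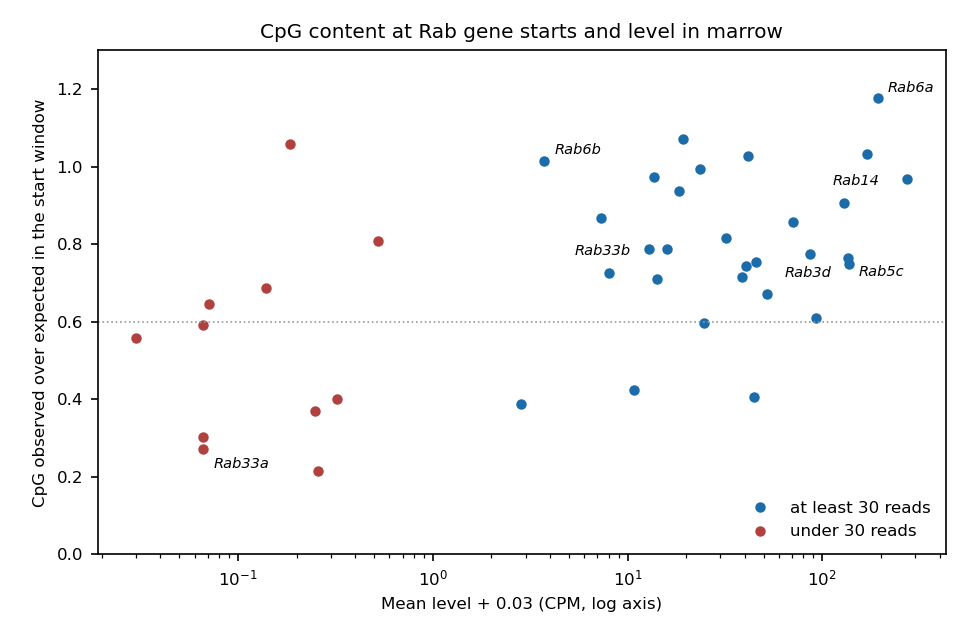
Ratio of observed to expected CG in the RefSeq start window against mean level (CPM, log axis, with 0.03 added) for the 40 Rab genes with exactly 1 window, coloured by whether the gene had at least 30 reads. Of the 29 genes with at least 30 reads, 25 lie at or above 0.6, the dotted line, and of the 11 others 4 do.

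The machinery that loads, extracts and switches off Rabs was present throughout. Of 119 genes in 8 lists of regulators and effectors, 116 had reads, 103 were tested and 49 differed, where 56.5% of all tested entries did. In the list of prenylation and membrane extraction, 6 of 8 genes differed. Gdi2, which keeps inactive Rabs soluble, was the most abundant regulator at 208, 182 and 168 CPM in replicates 1, 2 and 3 (exact adjusted p = 8.53e-08, 7.13e-09 to 0.0642, the highest without replicate 1). Rabac1, which helps deliver Rabs to membranes, had 41.6, 33.3 and 39.8 CPM (exact adjusted p = 0.0276, 0.0176 to 0.702, over 0.05 with each of the 4 other scalings and without replicate 1 or 2). Rabggta, a subunit of the enzyme that attaches the lipid anchor, had 7.42, 2.59 and 5.14 CPM (exact adjusted p = 5.92e-04, 7.83e-05 to 0.125, the highest without replicate 2). Gdi2, Rabac1 and Rabggta were each highest in replicate 1, whereas Chml, a Rab escort protein, was highest in replicate 2. It had 10.3, 17.6 and 13.4 CPM (exact adjusted p = 0.00213, 2.62e-04 to 0.117, over 0.05 without replicate 1 or 2).

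Of 33 exchange factor genes, 32 were tested and 14 differed. Gapvd1, an exchange factor of Rab5 and Rab31, had 116, 142 and 115 CPM in replicates 1, 2 and 3 (exact adjusted p = 1.15e-06, 4.25e-09 to 0.854, the highest without replicate 2). The library in which Gapvd1 was highest, replicate 2, was the one in which Rab5c was lowest. The exchange factors did not share 1 direction there. Of the 32 tested, 4 differed with replicate 2 the highest and 3 with replicate 2 the lowest, beside 14.8% and 21.4% of all tested entries. A link to Rab5c was not tested. Rab31 was highest in replicate 1, and its levels in replicates 2 and 3 (29.2 and 32.9 CPM) were close. Dennd4a, which acts on Rab10, had 61.1, 64.5 and 70.4 CPM (exact adjusted p = 0.101, and 0.00103 to 0.517, under 0.05 with each of the 4 other scalings and without replicate 2) and Rab3gap1, known for Rab3 and Rab18, 64.4, 66.8 and 56.7 CPM (exact adjusted p = 0.0366, 0.0271 to 0.678, over 0.05 with each of the 4 other scalings, with no read minimum and without replicate 2 or 3). The exchange factors that differed with the largest CV were less abundant. Mon1a, part of the Rab7 exchange factor, had 7.31, 3.33 and 6.24 CPM (exact adjusted p = 0.00421, 0.00201 to 0.551, the highest without replicate 2). Dennd1a, which acts on Rab35, had 12.0, 11.7 and 6.35 CPM (exact adjusted p = 1.63e-04, 1.42e-04 to 0.937, the highest without replicate 3), and Dennd2c had 6.00, 5.06 and 1.75 CPM (exact adjusted p = 3.25e-05, 2.79e-05 to 0.553, the highest without replicate 3).

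Of 34 TBC domain genes, 30 were tested and 12 differed. On library totals their sum was the steadiest of the regulator lists, with a CV of 1.21% around 695 CPM. The sums of the lists are given on library totals only, and this rank may differ with other scalings. Rabgap1l had 67.7, 94.0 and 70.7 CPM in replicates 1, 2 and 3 (exact adjusted p = 1.85e-09, 9.11e-12 to 0.581, the highest without replicate 2). Evi5, which acts on Rab11, had 66.1, 72.7 and 64.2 CPM (exact adjusted p = 0.139, 0.0231 to 0.753) and Tbc1d10b 54.6, 51.3 and 60.4 CPM (exact adjusted p = 0.0829, 0.00226 to 0.493). Both passed with each of the 4 other scalings, and Tbc1d10b also without replicate 1. Rabgap1l was highest in replicate 2, as Gapvd1 was. Sgsm3 had 18.7, 16.9 and 32.4 CPM, with replicate 3 the highest (exact adjusted p = 2.39e-11, 4.61e-14 to 0.561, the highest without replicate 3). Tbc1d4, which acts on Rab10 in the insulin response, had 5.89, 4.2 and 8.97 CPM (exact adjusted p = 0.00232, 5.17e-04 to 0.236, the highest without replicate 3), and Tbc1d22b 0.654, 2.59 and 2.52 CPM (exact adjusted p = 0.00393, 0.00121 to 1, the highest without replicate 1).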

How the data were processed

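RNA of the 3 vehicle libraries, from 500 ng per sample, was made into Lexogen QuantSeq libraries, per the labels' protocols. Bowtie2, bedtools and mm10 are named in the submitters' processing notes, with versions, annotation and strand setting not given in the sources used here. The authors deposited 1 log2 value per gene and library, which the values show to be log2(x + 1), where x counts reads per 1000000 of a scaled total. Whole reads were recovered from 100% of values within a tolerance of 1e-06. The scaled totals exceeded the reads by factors of 1.12, 1.03 and 1.01 for replicates 1, 2 and 3. The design had assumed counts, so the tests ran on recovered reads, summed per library to give CPM.

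Entries with at least 30 reads were tested by exact two-sided binomial tests of each library against the other 2, with the smallest p multiplied by 3 and Benjamini-Hochberg adjustment, in Python 3.11.15 with scipy 1.17.1. Leaving out 1 library left a single binomial test of the other 2. Log2 ratios of paralogs had 1 read added to each count. Intervals are exact 95% Clopper-Pearson intervals. The test was tested on simulated counts. Alternatives covered 4 scalings (TMM with 30% of ratios and 5% of intensities trimmed, median-of-ratios, the authors' own, and totals without the 20 most abundant entries), read minimums, a chi-square test, pseudocounts and leaving out each library. The text names every member, and of each regulator list the 3 most abundant genes and up to 3 called genes with the largest CV, with the Prelid1, Pp2d1 and marker values added as neighbours or markers. Of the marker genes, Hdc, Prg2, Ms4a2 and Siglecf were chosen after their values were seen. One further gene that this rule names is not reported here. Zfyve20 and Rubcn of the lists have no entry under those symbols. Members and lists were chosen with earlier results of these data known.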

Additional observations from a re-analysis of the deposited data

How the results depend on the processing

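No paired analysis was possible because only 1 group is analysed. With each of the 4 other scalings 27 of 44 members differed between libraries in place of 30, beside 51.8 to 52.2% of all tested entries. With a minimum of 10 reads 29 of 47 tested members differed, beside 54.0% of all tested entries. A minimum of 100 reads gave 25 of 36 beside 60.6%, and no minimum 29 of 59 beside 29.3%. The chi-square test gave 31 of 44 beside 58.9%. Leaving out replicate 1, 2 or 3 gave 17 of 43, 21 of 43 and 17 of 41 tested members, in place of 30 of 44. Of all tested entries 34.8%, 39.0% and 38.5% then differed, 3866 to 4392 genes in place of 6687. Each such test used fewer samples. The Rab total was 3767 CPM on totals without the 20 most abundant genes, whose denominator is smaller. The median log2 level of members was 3.70 with a pseudocount of 0.1 CPM and 4.18 with 5 CPM. The class shares are taken within a library and so cannot depend on the scaling. Leaving out 1 of 3 libraries moves a mean share by less than its SD by construction. Neither is a check on the shares. The log2 ratio of Rab1b over Rab1 ran between -0.25, without replicate 3, and 0.26, without replicate 1. Every other log2 paralog ratio was positive in each library. Neither a pseudocount nor leaving out a library could therefore change its sign. The difference between the highest and the lowest library changed sign for 4 named genes under other scalings. With TMM, median-of-ratios and the authors' scaling it was -0.028, -0.029 and -0.023 (log2) for Rab14, -0.0055, -0.0059 and -0.00056 for Rab32, -0.047, -0.048 and -0.042 for Gcc2, and -0.050, -0.055 and -0.063 for Rab11fip1. On totals without the 20 most abundant genes it was -0.017 for Gcc2 and -0.047 for Rab11fip1. The cause was not tested. Members with a few reads are limited by depth, and 13 of 59 could not be tested for that reason beside the 2 with none.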
